A study of Homo sapiens with 4 samples.

Results

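The genes described here encode the subunits of the Polycomb machinery built around EZH2, and were taken by symbol as a list of 10, namely EZH2, EZH1, EED, SUZ12, RBBP4, RBBP7, JARID2, MTF2, PHF19 and CBX2. All 10 were found among the 16376 genes with a deposited value, and all 10 passed the filter on low values. RNA was sequenced from LASCPC-01, a human neuroendocrine prostate cancer (NEPC) cell line generated by combined expression of NMYC and activated AKT1, so the controls carry both as well. The genotype is given as WT, 2 libraries came from cells given PBS and 2 from cells given fluoxetine, an antidepressant that blocks serotonin reuptake, and all 4 are marked day 3. The labels give no dose, PP stands in the titles of the samples treated with fluoxetine, and the paper's text describes a shorter exposure than the labels do. All libraries come from 1 cell line, and nothing states whether replicates were separate cultures, so the spread between them may be technical.

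Polycomb repressive complex 2 (PRC2) places methyl groups on lysine 27 of histone H3 and keeps developmental genes silent. EZH2, or its paralog EZH1, carries the catalytic SET domain, and neither is active without EED, which reads the methylated histone, and SUZ12, on which the complex is assembled. RBBP4 and RBBP7 are histone-binding proteins that PRC2 shares with other chromatin complexes. JARID2, MTF2 and PHF19 are accessory subunits that help bring the complex to its targets, with MTF2 and PHF19 in one form of PRC2 and JARID2 in another. CBX2 belongs to the other Polycomb complex, PRC1, where it binds the methylated histone, so that it is a reader of the mark rather than a subunit of the EZH2 complex. In neuroendocrine prostate cancer EZH2 is known for its high level and as a drug target.

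The DNA in front of the catalytic pair and of SUZ12, the core gene with the smallest p in the comparison, is shown first. Which start is used in these cells cannot be read from FPKM per gene. Each run holds the 250 bases before the gene's start in RefSeq (GRCh38.p14), 5′ to 3′ on the gene's strand, and capitals mark CCAAT boxes (CCAAT on either strand) and E2F sites (TTTCCCGC or TTTGGCGC on either strand). EZH2 lies on the minus strand at chr7:148884292-148884541, EZH1 on the minus strand at chr17:42745041-42745290 and SUZ12 on the plus strand at chr17:31936757-31937006.
EZH2: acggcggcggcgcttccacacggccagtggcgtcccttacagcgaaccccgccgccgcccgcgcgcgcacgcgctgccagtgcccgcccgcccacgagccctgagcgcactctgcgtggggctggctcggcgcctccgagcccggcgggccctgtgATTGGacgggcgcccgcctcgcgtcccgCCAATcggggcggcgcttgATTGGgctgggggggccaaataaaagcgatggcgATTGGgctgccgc
EZH1: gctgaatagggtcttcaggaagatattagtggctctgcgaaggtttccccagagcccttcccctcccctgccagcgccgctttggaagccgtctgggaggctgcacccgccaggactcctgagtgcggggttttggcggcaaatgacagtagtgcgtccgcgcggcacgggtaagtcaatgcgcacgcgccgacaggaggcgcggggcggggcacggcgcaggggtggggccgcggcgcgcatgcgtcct
SUZ12: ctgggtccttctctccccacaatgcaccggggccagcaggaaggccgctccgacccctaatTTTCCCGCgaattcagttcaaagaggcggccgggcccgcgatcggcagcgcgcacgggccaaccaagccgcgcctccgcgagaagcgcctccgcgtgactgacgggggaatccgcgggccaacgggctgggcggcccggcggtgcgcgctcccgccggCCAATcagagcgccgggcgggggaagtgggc

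The EZH2 window held 4 CCAAT boxes and no E2F site of these letters, the SUZ12 window held 1 of each, and the EZH1 window held neither. A promoter entry was found for 9 of the 10 genes, all but CBX2. CCAAT boxes were present in 7 of these 9 windows and in 32.0% of all 35116 promoter windows of the same length. The E2F letters were present in 2 of the 9, those of SUZ12 and PHF19, and in 1.93% of all windows. The Sp1 GC box (GGGCGG) was found in 7 of the 9 and in 42.6% of all, the MYC E-box (CACGTG) in RBBP4 alone and in 6.34% of all, and the ETS core (CCGGAAG) in 0 of the 9 and in 8.52% of all, each searched on both strands. None of these motifs contains another, and a match of letters is a description and not a binding site. The start of PHF19 in RefSeq lies 17708 bases from the outermost start in GENCODE 29, so that its window stands for one of several starts.

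Levels are given as FPKM, fragments on a gene scaled to its length and to the number of mapped fragments, which allows comparison between genes. Whole reads could be solved from the FPKM, and the libraries held 32873603 and 34756748 reads for PBS replicates 1 and 2 and 34806710 and 34831389 for fluoxetine replicates 1 and 2. The members rested on between 965 reads (EED, PBS replicate 1) and 21128 reads (RBBP7, fluoxetine replicate 1). Of the neuroendocrine markers, MYCN (323 to 387 FPKM) and NCAM1 (44.3 to 52.0 FPKM) were abundant, whereas CHGA was at most 0.0886 FPKM. The summed level of the 10 neuroendocrine markers was 607 to 624 FPKM with PBS and 537 to 591 FPKM with fluoxetine. MYCN supplied the larger part of every sum, namely 370 and 387 FPKM in the PBS libraries against 323 and 364 FPKM under fluoxetine. Whether its reads stem from the introduced NMYC was not tested. Of the 10 markers, 4 were not tested, 5 were negative in log2 fold change and 1, INSM1, was positive (0.08). ENO2, among the negative ones, stood at 2.93 ± 0.240 FPKM for PBS and 2.08 ± 0.0255 FPKM for fluoxetine (SD, n = 2 each). The 8 luminal prostate markers summed to 786 to 839 FPKM with PBS and to 849 to 905 FPKM with fluoxetine, with a median log2 fold change of 0.11 over the 6 tested, and KRT8 had 423 ± 16.1 and 461 ± 20.5 FPKM (SD, n = 2 each). No marker in either list passed the test, and their part in the results below was not tested. Markers of basal, fibroblast, endothelial and immune cells summed to at most 3.99 FPKM per list and library, mostly from COL1A1 and CD68, with PTPRC at most 0.0318 FPKM, PECAM1 at most 0.0157 FPKM and VWF at most 0.147 FPKM.

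The 10 genes ranged over more than an order of magnitude in level. The histone-binding subunits were highest, followed by the catalytic and scaffold subunits EZH2 and SUZ12 together with CBX2, and then by EZH1, EED and the accessory subunits. Over all 4 libraries the mean level was 220 FPKM for RBBP7, 40.6 FPKM for RBBP4, 21.3 FPKM for EZH2, 20.2 FPKM for SUZ12, 19.0 FPKM for CBX2, 11.8 FPKM for EZH1, 9.64 FPKM for MTF2, 8.41 FPKM for EED, 7.64 FPKM for JARID2 and 5.22 FPKM for PHF19. Neighbours in this order whose ranges over the libraries overlapped were EZH2 and SUZ12, SUZ12 and CBX2, and EED and JARID2, while the other 6 neighbouring pairs had ranges that did not. EED was nevertheless above JARID2 in 4 of 4 libraries, and EZH2 was above SUZ12 in 3 of 4. Of all listed genes, 1.33% had a higher mean than RBBP7, 19.5% a higher mean than EZH2 and 46.3% a higher mean than PHF19.

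**Figure D1:**
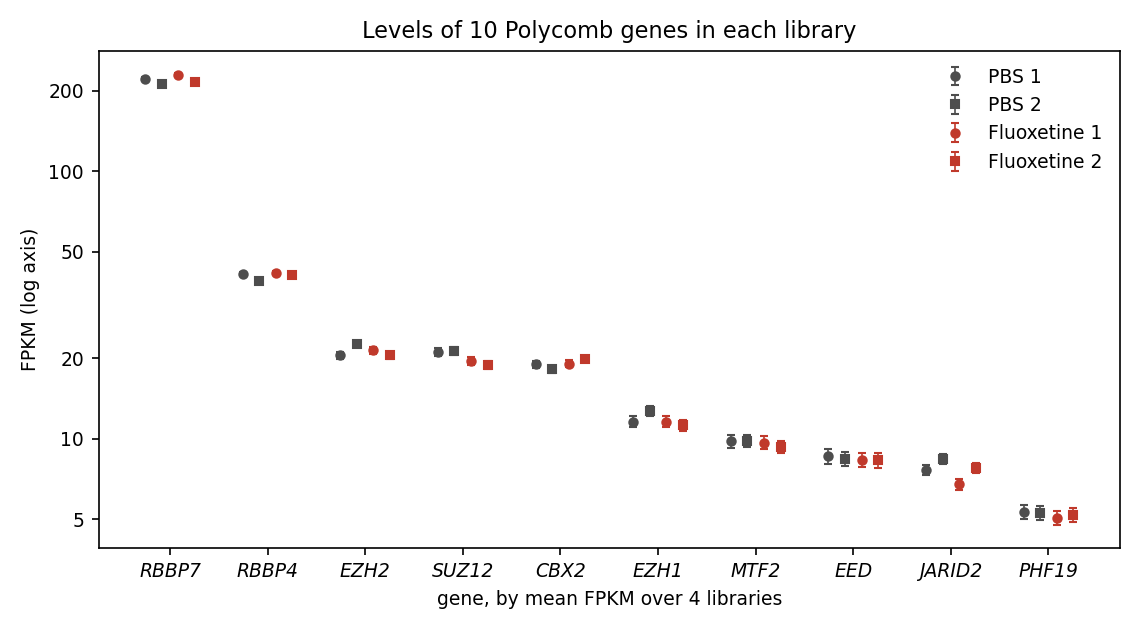
FPKM on a log axis of the 10 Polycomb genes in each of the 4 libraries, PBS in grey and fluoxetine in red, with circles for replicate 1, squares for replicate 2 and bars for the 95% counting interval of the reads. RBBP7 stands at 212 to 229 FPKM and PHF19 at 5.06 to 5.33 FPKM, and the treatments lie close together at each gene.

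Whether fluoxetine altered the Polycomb subunits was tested with limma on log2(FPKM + 0.1) across 12663 genes that averaged at least 0.1 FPKM, with Benjamini-Hochberg adjustment. None of the 10 members passed an adjusted p of 0.05, where 0.237% of all genes tested did (30 genes, with 0.213% lower and 0.0237% higher under fluoxetine), and 0 of the 10 had an unadjusted p under 0.05, where 8.51% of all genes did (4.79% lower and 3.73% higher). Under 2 of 16 alternatives 1 member, SUZ12, had an unadjusted p under 0.05. With limma voom on the solved reads, 0 of the 10 had an adjusted p under 0.05 as well. The log2 fold changes lay between -0.14 and 0.07 with a median of -0.04, beside a median of -0.02 over all genes tested, and were negative for 7 members and positive for 3, where 7156 of the genes tested were negative and 5507 positive. The sign of 4 of the 10, EZH2, PHF19, RBBP4 and RBBP7, turned under another scaling or with the gene length trend removed. In the main fit, the 95% intervals of the 10 members reached a fall of at most 22.4% (JARID2) and a rise of at most 17.8% (CBX2). These are on the scale of FPKM + 0.1, and in other settings some intervals reached further in both directions. For any 1 gene the smallest p that an exact permutation test of 2 against 2 libraries allows is 0.333.

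**Figure D2:**
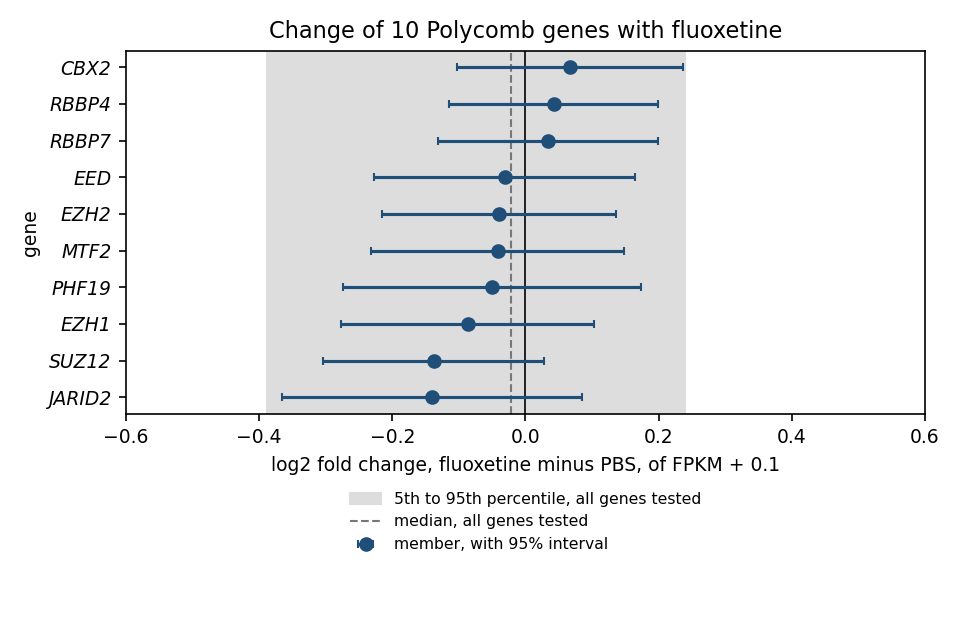
Log2 fold change of FPKM + 0.1, fluoxetine minus PBS, of the 10 members (points) with 95% intervals from limma, over the 5th to 95th percentile (-0.39 to 0.24, grey band) and the median (-0.02, dashed) of all 12663 genes tested. All 10 intervals include 0.

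EZH2 (ENSG00000106462.10), the main methyltransferase of PRC2, spans bases 148807383 to 148884321 of chromosome 7 (GRCh38, GENCODE 29, as for all genes here). PBS replicates 1 and 2 stood at 20.5 and 22.6 FPKM, and fluoxetine replicates 1 and 2 at 21.4 and 20.5 FPKM. The treatments overlapped, and the highest and one of the 2 lowest values both belonged to PBS. In bulk RNA, fewer cells with a transcript and less of it per cell cannot be told apart. Group means were 21.6 ± 1.45 FPKM for PBS and 21.0 ± 0.596 FPKM for fluoxetine (SD, n = 2 each). The fitted log2 fold change was -0.04 ± 0.08 (SE), with an adjusted p of 0.902 in limma. The 95% interval ran from -13.9% to 9.86%, so that a larger fall or rise of EZH2 RNA lay outside it. With PBS replicate 2 left out the log2 fold change was 0.03, and with PBS replicate 1 left out it was -0.11.

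EZH1 (ENSG00000108799.12, chromosome 17 from 42700275 to 42745049), the paralog that prevails in many non-dividing tissues, had 11.6 and 12.7 FPKM for PBS and 11.6 and 11.2 FPKM for fluoxetine. PBS replicate 1 and fluoxetine replicate 1 were nearly equal, at 1764 and 1867 reads in libraries of different depth. The fitted log2 fold change was -0.09 ± 0.09 (SE), with an adjusted p of 0.773 in limma and a 95% interval from -17.4% to 7.46%. It was -0.15 without PBS replicate 1 and -0.0228 without PBS replicate 2. EZH2 made up 64.0% and 64.1% of the summed FPKM of the pair in the PBS libraries and 64.9% and 64.7% in the fluoxetine libraries, so EZH2 was the more abundant catalytic subunit in each library. The ratio of EZH2 to EZH1 was 1.77 and 1.79 with PBS and 1.85 and 1.83 with fluoxetine. The values with fluoxetine were both above those with PBS by a small margin, with a difference of 0.05 in the log2 ratio (exact permutation test, two-sided, p = 0.333, the smallest that 2 against 2 allows).

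SUZ12 (ENSG00000178691.10, chromosome 17 from 31937018 to 32001045), the scaffold of the complex, had 21.0 and 21.2 FPKM for PBS and 19.6 and 18.8 FPKM for fluoxetine. Both fluoxetine libraries lay below both PBS libraries, and the replicates of each group were close to each other. Group means were 21.1 ± 0.144 FPKM for PBS and 19.2 ± 0.520 FPKM for fluoxetine (SD, n = 2 each). The log2 fold change of -0.14 ± 0.08 (SE) had the smallest p of the 10 members (unadjusted p = 0.0951, adjusted p = 0.613 from limma). The 95% interval ran from -19.0% to 1.95%. With FPKM rescaled to TPM the log2 fold change was -0.19 (unadjusted p = 0.0396, adjusted p = 0.561 from limma). The same rescaling put the median over 12621 genes tested at -0.07, against -0.02 without it. Without the filter on low values SUZ12 had an unadjusted p of 0.0285 and an adjusted p of 0.665 from limma. In neither of these settings did its 95% interval include 0. Of the stretches of 75 bases in its GENCODE transcripts, 4.28% are also found in transcripts of other genes, mainly the pseudogene SUZ12P1, and how the counting treated such reads is not given.

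EED (ENSG00000074266.19, chromosome 11 from 86244544 to 86278813), the subunit that binds the methylated histone, had 8.60 and 8.40 FPKM for PBS and 8.33 and 8.30 FPKM for fluoxetine. The groups did not overlap, yet all 4 values lay within the counting interval of a single library, which ran from 8.06 to 9.16 FPKM in PBS replicate 1. The fitted log2 fold change was -0.03 ± 0.09 (SE), with an adjusted p of 0.943 in limma and a 95% interval from -14.6% to 12.1%.

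RBBP4 (ENSG00000162521.18, chromosome 1 from 32651142 to 32686211) and RBBP7 (ENSG00000102054.17, chromosome X from 16839283 to 16870414) are close paralogs. RBBP4 had 41.2 and 38.9 FPKM for PBS and 41.5 and 40.9 FPKM for fluoxetine. RBBP7 had 222 and 212 FPKM for PBS and 229 and 215 FPKM for fluoxetine. The groups overlapped for both genes, and in each group replicate 1 was above replicate 2. The log2 fold changes were 0.04 for RBBP4 (adjusted p = 0.877 from limma) and 0.03 for RBBP7 (adjusted p = 0.914 from limma), with 95% intervals from -7.65% to 14.9% and from -8.72% to 14.8%. For RBBP4 the log2 fold change was 0.0845 without PBS replicate 1, 0.000373 without PBS replicate 2 and 0.12 with the gene length trend removed. RBBP7 was between 5.26 and 5.51 times as high as RBBP4 in the 4 libraries, with overlapping groups. The level of RBBP4 is less certain, since 16.9% of its stretches of 75 bases are also found in transcripts of other genes, among them the pseudogenes RBBP4P1 and RBBP4P2 and the gene SYNC, which overlaps it on the opposite strand. For RBBP7 the share was 1.62%, mainly with TXLNG on the opposite strand, and none of these stretches was shared between members.

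The accessory subunits differed in how well their replicates matched. JARID2 (ENSG00000008083.13, chromosome 6 from 15246296 to 15522040), which can both recruit and stimulate PRC2, had 7.65 and 8.37 FPKM for PBS and 6.77 and 7.76 FPKM for fluoxetine. The groups overlapped, since fluoxetine replicate 2 lay above PBS replicate 1, and replicate 2 was above replicate 1 in both groups. Its replicates differed by a coefficient of variation of 8.14%, the largest of the 10 members, against 2.30% from counting alone. The log2 fold change of JARID2 was -0.14 ± 0.10 (SE), at an adjusted p of 0.682 in limma and a 95% interval from -22.4% to 6.03%. With 1 library left out, it ranged from -0.24 without fluoxetine replicate 2 to -0.04 without fluoxetine replicate 1.

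MTF2 (ENSG00000143033.17, chromosome 1 from 93079235 to 93139081), a Polycomb-like protein that binds DNA rich in CpG, had 9.77 and 9.79 FPKM for PBS and 9.68 and 9.33 FPKM for fluoxetine. PHF19 (ENSG00000119403.14, chromosome 9 from 120855652 to 120894896), its relative, had 5.33 and 5.30 FPKM for PBS and 5.06 and 5.20 FPKM for fluoxetine. For both genes the fluoxetine libraries lay below the PBS libraries by less than the width of the counting intervals, although the log2 fold change of PHF19 was 0.000326 with the gene length trend removed. Their log2 fold changes were -0.04 (adjusted p = 0.906 from limma) and -0.05 (adjusted p = 0.902 from limma), with 95% intervals from -14.8% to 10.9% and from -17.3% to 12.7%. MTF2 supplied 41.7% to 45.0% of the summed FPKM of the 3 accessory genes over the libraries, JARID2 31.5% to 35.7% and PHF19 22.6% to 23.5%. The 3 together reached 1.08 to 1.18 times the FPKM of SUZ12.

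CBX2 (ENSG00000173894.10, chromosome 17 from 79778132 to 79787983), the chromodomain reader in PRC1, had 19.0 and 18.2 FPKM for PBS and 19.1 and 19.9 FPKM for fluoxetine. Both fluoxetine libraries were above both PBS libraries, fluoxetine replicate 1 by less than the counting error. The fitted log2 fold change was 0.07 ± 0.08 (SE), with an adjusted p of 0.804 in limma and a 95% interval from -6.86% to 17.8%. Of other chromodomain subunits of PRC1, whose levels were set beside CBX2 after their values were seen, CBX6 had 25.2 ± 0.619 FPKM (SD, n = 2) with PBS, CBX8 5.49 ± 0.0712 FPKM and CBX7 2.16 ± 0.131 FPKM. CBX2 was thus below CBX6 and above CBX8 and CBX7.

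In total, both fluoxetine libraries lay below both PBS libraries for 5 of the 10 members (EZH1, SUZ12, EED, MTF2 and PHF19), where 24.8% of all genes tested did so, and above them for 1 (CBX2), where 16.7% did. The replicates of a group had counting intervals that did not meet for 4 members with PBS (EZH2, JARID2, RBBP4 and RBBP7) and for 2 with fluoxetine (JARID2 and RBBP7), so that for these genes the libraries varied by more than counting error. The largest absolute log2 fold change among the members, 0.14, was not exceeded by 64.7% of all genes tested and by 78.3% of the 7359 genes whose mean lay within the range of the members.

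Ratios between members within a library do not depend on the scaling to depth. Of 8 ratios computed, 4 had groups that did not overlap. Among single genes tested, 24.8% lay wholly lower and 16.7% wholly higher with fluoxetine, and no such share was computed for ratios. MTF2 to SUZ12 was 0.464 and 0.461 with PBS and 0.494 and 0.495 with fluoxetine. PHF19 to SUZ12 was 0.253 and 0.249 with PBS and 0.258 and 0.276 with fluoxetine. SUZ12 to EZH2 was 1.02 and 0.940 with PBS and 0.916 and 0.917 with fluoxetine. These ratios share SUZ12, so they are not separate observations. The fourth, EZH2 to EZH1, shares EZH2 with the ratio of SUZ12 to EZH2. Each of the 4 had p = 0.333 in the two-sided exact permutation test, or 0.667 after adjustment over the 8 ratios, in a design that cannot go lower. The ratios of EED to EZH2 (0.372 to 0.418), JARID2 to SUZ12 (0.346 to 0.412), RBBP7 to RBBP4 and CBX2 to EZH2 (0.804 to 0.967) overlapped between the groups.

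**Figure D3:**
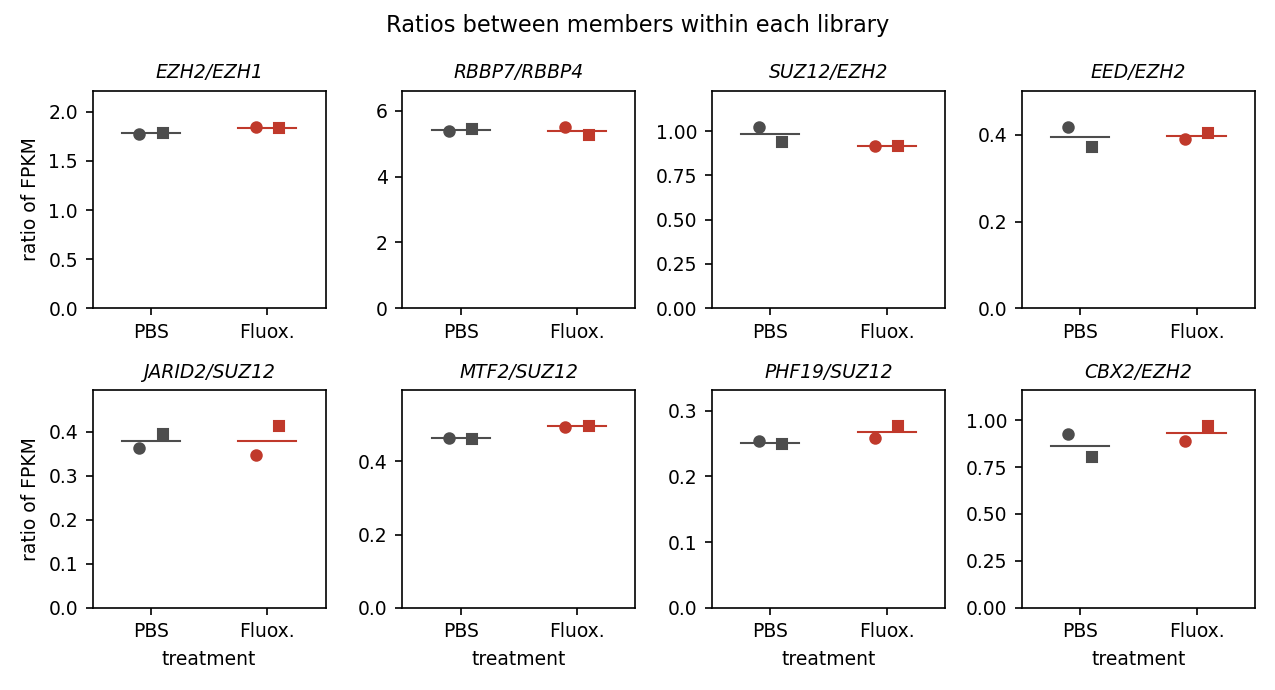
Ratio of FPKM between pairs of members in each library, with PBS in grey, fluoxetine in red, circles for replicate 1, squares for replicate 2 and lines at the group means, on linear axes from 0. MTF2 to SUZ12 moves from 0.463 to 0.495 in the mean, whereas RBBP7 to RBBP4 overlaps between the treatments.

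The other genes of the pathway were described by 11 lists, with 164 of their entries tested, and no gene in any of them had an adjusted p under 0.05 from limma. With limma voom on the solved reads the count was also 0. At an unadjusted p under 0.05 there were 6 of 29 HOX genes (5 lower and 1 higher), 3 of 22 proliferation markers (all higher), 2 of the 26 other PRC1 genes (both lower), 2 of 18 trithorax and H3K36 methyltransferases (both lower), 1 of 11 PR-DUB genes (lower), 1 of 23 genes of the other RBBP4 and RBBP7 complexes (higher), and 0 in the remaining 5 lists, beside 8.51% of all genes tested. The 5 other PRC2 accessory genes tested were all negative in log2 fold change, with a median of -0.09. EPOP, which links PRC2 to elongin, was the most abundant of them at 24.3 ± 2.30 FPKM for PBS and 23.9 ± 1.83 FPKM for fluoxetine (SD, n = 2 each), above the levels of MTF2, JARID2 and PHF19. LCOR, which encodes a ligand-dependent corepressor and, from the same locus, a PRC2 accessory protein, had 5.30 ± 0.0628 FPKM for PBS and 4.52 ± 0.447 FPKM for fluoxetine (log2 fold change -0.23, adjusted p = 0.592 from limma).

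The 26 other PRC1 genes had a median log2 fold change of -0.06, with 17 negative and 9 positive. PHC2, a polyhomeotic subunit, was highest at 42.7 ± 1.95 FPKM for PBS and 44.7 ± 0.0277 FPKM for fluoxetine (SD, n = 2 each), and PHC3 had the log2 fold change with the smallest p, -0.26 (adjusted p = 0.552 from limma). The PR-DUB genes, whose complex removes the ubiquitin that PRC1 places on histone H2A, had a median of -0.10 over 11 genes. FOXK2 had 52.9 ± 4.03 FPKM for PBS and 49.9 ± 1.86 FPKM for fluoxetine, and ASXL2 had a log2 fold change of -0.28 (adjusted p = 0.555 from limma).

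Both demethylases of lysine 27 had negative log2 fold changes, and neither passed the test. KDM6B, a demethylase of lysine 27, had 21.6 and 24.5 FPKM for PBS and 18.6 and 21.5 FPKM for fluoxetine, for a log2 fold change of -0.20 (adjusted p = 0.579 from limma). KDM6A, the related demethylase, had 4.03 and 3.65 FPKM for PBS and 3.08 and 3.80 FPKM for fluoxetine, for a log2 fold change of -0.16 (adjusted p = 0.715 from limma) with overlapping groups. The trithorax and H3K36 methyltransferase list, which also holds the acetyltransferases CREBBP and EP300, had a median log2 fold change of -0.11 with 16 of 18 genes negative, beside 7156 of 12663 over all genes tested. The 2 positive genes were DPY30 at 0.17 and WDR5 at 0.01, shared subunits of the H3K4 methyltransferase complexes. ASH2L and RBBP5, shared subunits as well, were negative at -0.11 and -0.03. All of these were named after their values were seen. KMT2C had the smallest p in this list, with a log2 fold change of -0.32 (adjusted p = 0.535 from limma). MEN1, the most abundant, had -0.04 (adjusted p = 0.880 from limma). These genes are long, with a median length of 8728 bases against 3848 over all genes tested. After removal of a trend with gene length, the median was -0.03 for this list, -0.10 for the demethylases, -0.05 for PR-DUB, -0.05 for the other PRC1 genes, -0.04 for the other PRC2 accessory genes, -0.05 for the HOX genes, which had been at -0.03, and -0.00928 for the 10 members. For the remaining 5 lists it then lay between 0.00455 (proliferation markers) and 0.0376 (other RBBP4 and RBBP7 complexes).

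Complexes that share RBBP4 and RBBP7 with PRC2 (NuRD, SIN3 and CAF-1) had a median log2 fold change of 0.003 over 23 genes. CHD4, the remodelling ATPase of NuRD, had 107 ± 2.71 FPKM for PBS and 106 ± 2.71 FPKM for fluoxetine (SD, n = 2 each). BRMS1, a SIN3-associated protein, had 35.1 ± 0.606 FPKM with PBS and 41.8 ± 0.319 FPKM under fluoxetine, where the log2 fold change of 0.25 had the smallest p of all the lists (unadjusted p = 0.00390, adjusted p = 0.334 from limma). The DNA methyltransferases DNMT1, DNMT3A and DNMT3B and their partner UHRF1 had log2 fold changes of -0.05, 0.02, -0.11 and -0.02, with adjusted p of 0.677 or more from limma.

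Genes that PRC2 is known to silence were divided in sign. Those named below were expressed with PBS as well, so they were not silent in these cells, and the histone mark was not measured. Of 39 HOX genes, 29 had a mean of at least 0.1 FPKM, with 15 negative and 14 positive and a median log2 fold change of -0.03. HOXC10 was highest at 47.3 ± 1.23 FPKM for PBS and 46.0 ± 4.18 FPKM for fluoxetine (SD, n = 2 each). HOXB7 had 17.5 ± 0.136 FPKM for PBS and 20.7 ± 1.96 FPKM for fluoxetine, for a log2 fold change of 0.24 (adjusted p = 0.513 from limma). Of the 6 HOX genes with an unadjusted p under 0.05 from limma, HOXB7 was the 1 that was higher. The other 5 were lower, where 4.79% of all genes tested were lower and 3.73% higher at this threshold. Of 26 other textbook Polycomb-silenced genes, 12 were tested, with 7 negative and 5 positive and a median of -0.02. Of these, FOXC1 had 31.3 ± 0.601 FPKM for PBS and 28.5 ± 3.56 FPKM for fluoxetine, and RUNX3 had a log2 fold change of -0.25 (adjusted p = 0.614 from limma). A further 11 were listed below 0.1 FPKM and 3 were not found by symbol among the 16376 genes.

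EZH2 transcription is known to follow E2F activity and proliferation, so both lists were set beside it. The 12 RB and E2F genes had a median log2 fold change of -0.03, with values between -0.16 (E2F7, adjusted p = 0.686 from limma) and 0.07. TFDP1, the partner of the E2F proteins, had 142 ± 1.65 FPKM for PBS and 144 ± 0.326 FPKM for fluoxetine (SD, n = 2 each). The 22 proliferation markers had a median of 0.001, with 11 negative and 11 positive. Their values lay between -0.18 (MKI67, adjusted p = 0.598 from limma) and 0.21. PCNA had 157 ± 0.307 FPKM for PBS and 168 ± 3.28 FPKM for fluoxetine (log2 fold change 0.10, adjusted p = 0.674 from limma), and AURKB 95.7 ± 1.69 FPKM for PBS and 110 ± 3.78 FPKM for fluoxetine (0.21, adjusted p = 0.497 from limma).

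**Figure D4:**
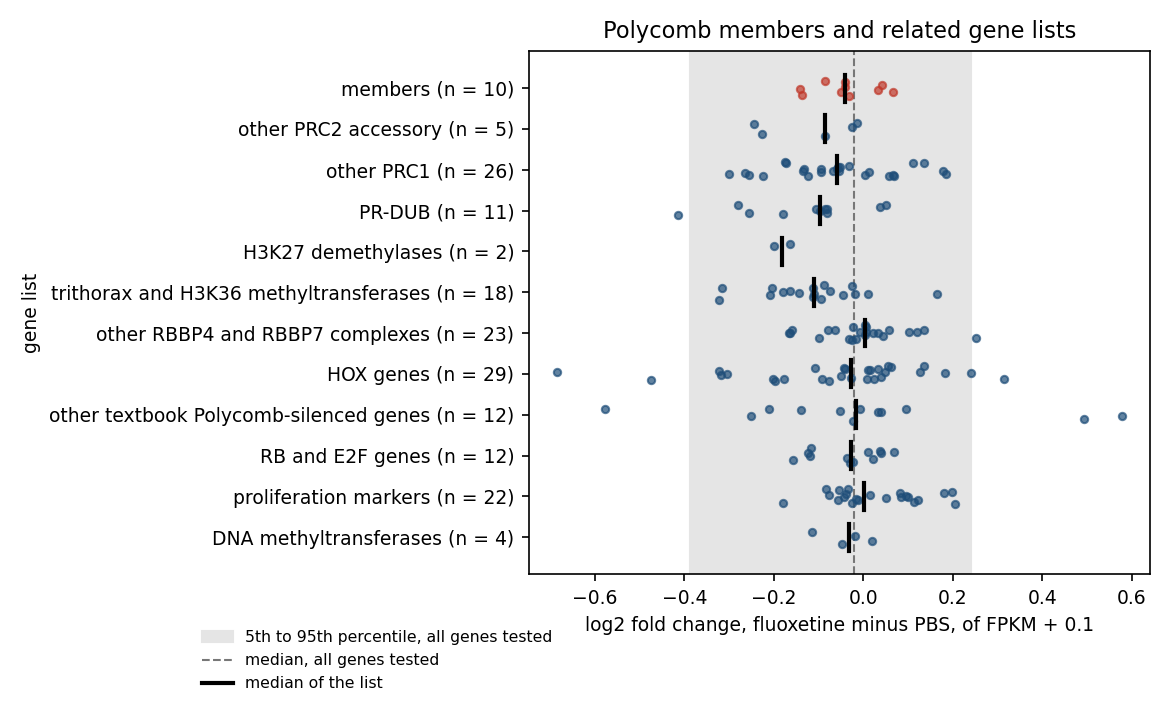
Log2 fold change of FPKM + 0.1, fluoxetine minus PBS, of each gene tested in the 10 members (red) and in 11 lists of related genes (blue), with black bars at the list medians, over the 5th to 95th percentile and the median of all genes tested. The members lie between -0.14 and 0.07, and the widest spread is among the HOX and other Polycomb-silenced genes. The extremes there are genes of low level. They are HOXB2 and HOXD11 (mean 0.675 and 0.216 FPKM) and BMP4 and OLIG2 (mean 0.150 and 0.224 FPKM).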

How the data were processed

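From RNA of LASCPC-01 cells the authors deposited FPKM for each gene in each of the 4 libraries. The submitters' processing notes name fastp, HISAT2, HTSeq and GRCh38. The annotation, the strand setting and versions are not given in the sources used here. A stranded TruSeq kit is named in the labels and a VAHTS kit in the paper. FPKM are not counts, so limma 3.58.1 in R 4.3.3 was used (lmFit, eBayes with a variance trend), and the DESeq2 of the study was not. Whole reads were solved per gene as the smallest numbers whose ratios gave the FPKM ratios within 0.003 of a whole number plus an allowance for rounding, and depth came from 32 genes that pointed to 1 shared value at their GENCODE 29 exon length. This solved 99.7% of the 16080 genes above 0. A gene's true reads may be multiples of those given. Counting intervals are exact Poisson intervals at 95% and cover counting error only. Both steps were tested on simulated data. The chi-square per degree of freedom between replicates was 8.69 for PBS and 10.5 for fluoxetine, above sampling noise. That does not show whether replicates were separate cultures, and all 4 libraries were kept as samples. Titles number the libraries 1 and 2 in each group, and deviations of same-numbered libraries correlated at 0.035, so no pairing was assumed. The members, lists and tests were chosen with earlier results of these data known. Named were all 10 members and, from each list, any gene past the threshold and otherwise the gene with the highest mean and that with the smallest p, and every demethylase and DNA methyltransferase. Other chromodomain subunits, DPY30, WDR5, ASH2L, RBBP5 and the cell markers NCAM1, CHGA, PTPRC and PECAM1 were named outside this rule, after their values were seen. So were HOXB2, HOXD11, BMP4, OLIG2 and MKI67, extremes of their lists. Sequences came from RefSeq (GRCh38.p14). Tables were handled in Python 3.11.15 with pandas 2.3.3 and numpy 2.4.6, exact intervals and tests came from scipy 1.17.1, and plots from matplotlib 3.10.9.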

Additional observations from a re-analysis of the deposited data

How the results depend on the processing

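In each of the 16 alternatives, 0 of the 10 members and 0 genes of the 11 related lists had an adjusted p under 0.05 from limma. The median log2 fold change of the members was -0.0885 with FPKM rescaled to TPM, beside -0.0688 over 12621 genes tested. It was -0.0144 after median centring and between -0.05 and -0.02 with 1 library left out. With the gene length trend removed it was -0.00928, beside -0.00188 over the same 12621 genes. The sign turned for EZH2 (0.0173) and PHF19 (0.000326) with the length trend removed, for RBBP4 (-0.00526) under TPM, and for RBBP7 under TPM (-0.0138) and quantile normalization (-0.0472). Leaving out each library in turn gave -0.11 to 0.0286 for EZH2 and -0.0102 to 0.0782 for RBBP7. Of the other named genes, the sign turned for EPOP (0.000281) with median centring, CHD4 with median centring (0.0105) and without the length trend (0.0453), TFDP1 under TPM (-0.0264) and quantile normalization (-0.0319), DNMT3A under TPM (-0.0280), and UHRF1 with median centring (0.0090) and without the length trend (0.0165). With 1 library left out, the ranges were -0.12 to 0.0702 for EPOP, -0.10 to 0.0126 for MEN1, -0.0419 to 0.0104 for CHD4, -0.13 to 0.0506 for HOXC10, -0.0352 to 0.0731 for DNMT3A and -0.0593 to 0.0247 for UHRF1. The cause was not tested.

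Over all genes, 30 were called, 0 without the filter on low values, 0 without a variance trend, 16 with quantile normalization, 51 with limma voom on the solved reads, and 2 to 12 with 1 library left out, where the lone library is assumed to vary like the others. A fit with the replicate number as a block called 64 genes and 0 members, but the numbers are not stated to pair the libraries. The number of libraries limits the precision more than the reads for the members whose replicates lay apart.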
